A study of Mus musculus with 4 samples.

Results

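Mmp3, Mmp9, Mmp10, Mmp12 and Mmp13 encode secreted matrix metalloproteinases that cells make in quantity only when induced. They were taken as every probe set of the array with exactly 1 gene symbol equal to 1 of these 5 names, which gave 6 probe sets, 2 for Mmp9 and 1 for each of the others, of 20380 probe sets with a single gene. The 5 genes were all among the 8686 of 12393 genes kept because their highest value reached 4.63 on the log2 scale, the 40th percentile of the table and called the filter level here. The study cultured mammary fibroblasts from FVB/N mice of 9 weeks in medium with 10% serum and hybridised 1 Affymetrix array for each of 4 groups. PyMT Ets2-null fibroblasts came from PyMT;Fsp-cre;Ets2db/loxP mice, PyMT Ets2-present fibroblasts from PyMT;Ets2db/loxP mice, normal Ets2-null fibroblasts from Fsp-cre;Ets2db/loxP mice and normal Ets2-present fibroblasts from Ets2db/loxP mice. All 4 groups thus carried the Ets2db allele, a conventional knockout in the DNA-binding domain, and the conditional Ets2loxP allele, so that the Ets2-present cells had a single intact copy of Ets2 and no array held cells with a full set. PyMT, the polyoma middle T oncogene, was driven in the epithelium by the MMTV promoter, and Fsp-cre by the promoter of Fibroblast Specific Protein 1. Cre was present in both Ets2-null groups and in neither Ets2-present group, so effects of Cre and of Ets2 loss cannot be told apart. How many mice each culture came from is not given in the sources used here.

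Matrix metalloproteinases are zinc-dependent endopeptidases that are secreted as inactive proenzymes, activated by cleavage, and held in check by tissue inhibitors of metalloproteinases (TIMPs). Mmp13 is the main interstitial collagenase of mice, Mmp9 a gelatinase that degrades denatured and basement membrane collagen, Mmp3 and Mmp10 are stromelysins with broad matrix substrates that also activate other proenzymes, and Mmp12 is the macrophage elastase. In stroma their transcription is known to respond to growth factors, cytokines and oncogenic signals through AP-1 and ETS sites in their promoters, and Ets2 is a transcription factor of the ETS family.

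The comparisons asked how the levels of these genes differed with loss of Ets2 in fibroblasts of PyMT and of normal glands, and with PyMT in fibroblasts with and without Ets2. With 1 array per group no difference has a replicate check among these arrays, and none has an error or a p-value. As a yardstick, 3376 genes with more than 1 kept probe set were used, and the differences given by their 2 brightest were subtracted from each other. The SD of that disagreement was 0.69 for the Ets2 difference in PyMT fibroblasts and 0.48 in normal fibroblasts, and for the PyMT difference 0.70 in Ets2-null fibroblasts and 0.51 in Ets2-present ones, all in log2 units. It measures probes on the same arrays and not the spread between cultures. Correlations between arrays over all probe sets were 0.959 to 0.969 for the PyMT Ets2-null array with the other 3, and 0.970 to 0.985 among those 3. The median of the 3 probe sets for 18S ribosomal RNA was 9.05 on the PyMT Ets2-null array and 6.44 to 6.75 on the other arrays. The Ets2 probe set read 11.22 in PyMT Ets2-null and 11.21 in PyMT Ets2-present fibroblasts, and 11.89 in normal Ets2-null and 11.86 in normal Ets2-present fibroblasts. Its position with respect to the deleted part of the gene is unknown, so these levels are no check of the deletion.

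Mmp13 had a log2 level of 4.73 in PyMT Ets2-null and 9.06 in PyMT Ets2-present fibroblasts, and of 6.16 in normal Ets2-null and 5.24 in normal Ets2-present fibroblasts. The PyMT Ets2-present array alone was high, and the PyMT Ets2-null array was lowest, close to the filter level. Without Ets2 the collagenase was thus 20.1-fold lower in PyMT fibroblasts, the 5th lowest difference of the 8686 genes, while it was 1.89-fold higher in normal fibroblasts.

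Mmp10 followed the same order of arrays, with 5.56 in PyMT Ets2-null and 8.95 in PyMT Ets2-present fibroblasts, and 6.11 in normal Ets2-null and 5.79 in normal Ets2-present fibroblasts. This stromelysin was 10.5-fold lower without Ets2 in PyMT fibroblasts, the 13th lowest difference, and 1.25-fold higher in normal fibroblasts. The PyMT Ets2-present array stood apart, and neither the normal arrays from each other nor the Ets2-null arrays from each other differed beyond the yardstick.

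Mmp3 was well above the filter level on every array, at 6.87 in PyMT Ets2-null and 9.54 in PyMT Ets2-present fibroblasts, and at 8.98 in normal Ets2-null and 8.10 in normal Ets2-present fibroblasts. Here normal fibroblasts without Ets2 came near the PyMT Ets2-present level, and the PyMT Ets2-null array stood lowest, also below both normal arrays. The Ets2 difference was a 6.35-fold lower level in PyMT fibroblasts (30th lowest) and a 1.85-fold higher level in normal fibroblasts.

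Mmp9 was read by 2 probe sets that differed in how much they separated the arrays. The brighter, 1416298_at, gave 3.60 in PyMT Ets2-null and 7.74 in PyMT Ets2-present fibroblasts, and 5.97 in normal Ets2-null and 6.26 in normal Ets2-present fibroblasts, a 17.6-fold lower level without Ets2 in PyMT fibroblasts (8th lowest). Its PyMT Ets2-null value lay under the filter level, and raising it to that level left the gelatinase 8.65-fold lower. The dimmer, 1448291_at, gave 4.47 in PyMT Ets2-null and 5.49 in PyMT Ets2-present fibroblasts, and 5.11 in normal Ets2-null and 4.87 in normal Ets2-present fibroblasts, a 2.02-fold lower level without Ets2 in PyMT fibroblasts. Both placed PyMT Ets2-present highest and PyMT Ets2-null lowest, but their Ets2 differences in PyMT fibroblasts disagreed by 3.13, and in only 5 of the 3376 genes with such a pair (0.148%) was the disagreement as large or larger. In normal fibroblasts the Ets2 difference was -0.29 by the brighter and 0.24 by the dimmer probe set, so its direction there depends on the probe set.

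Mmp12, the macrophage elastase, did not show this pattern. It read 5.11 in PyMT Ets2-null and 5.57 in PyMT Ets2-present fibroblasts, and 3.98 in normal Ets2-null and 4.78 in normal Ets2-present fibroblasts. Both PyMT arrays were above both normal arrays, and the Ets2 difference was -0.46 in PyMT fibroblasts, within the yardstick, and -0.80 in normal fibroblasts, beyond it. The normal Ets2-null value was under the filter level, and with it raised to that level the difference in normal fibroblasts was -0.15. No array placed Mmp12 more than 1 log2 unit over the filter level, so its values rest on weak signal throughout.

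**Figure D1:**
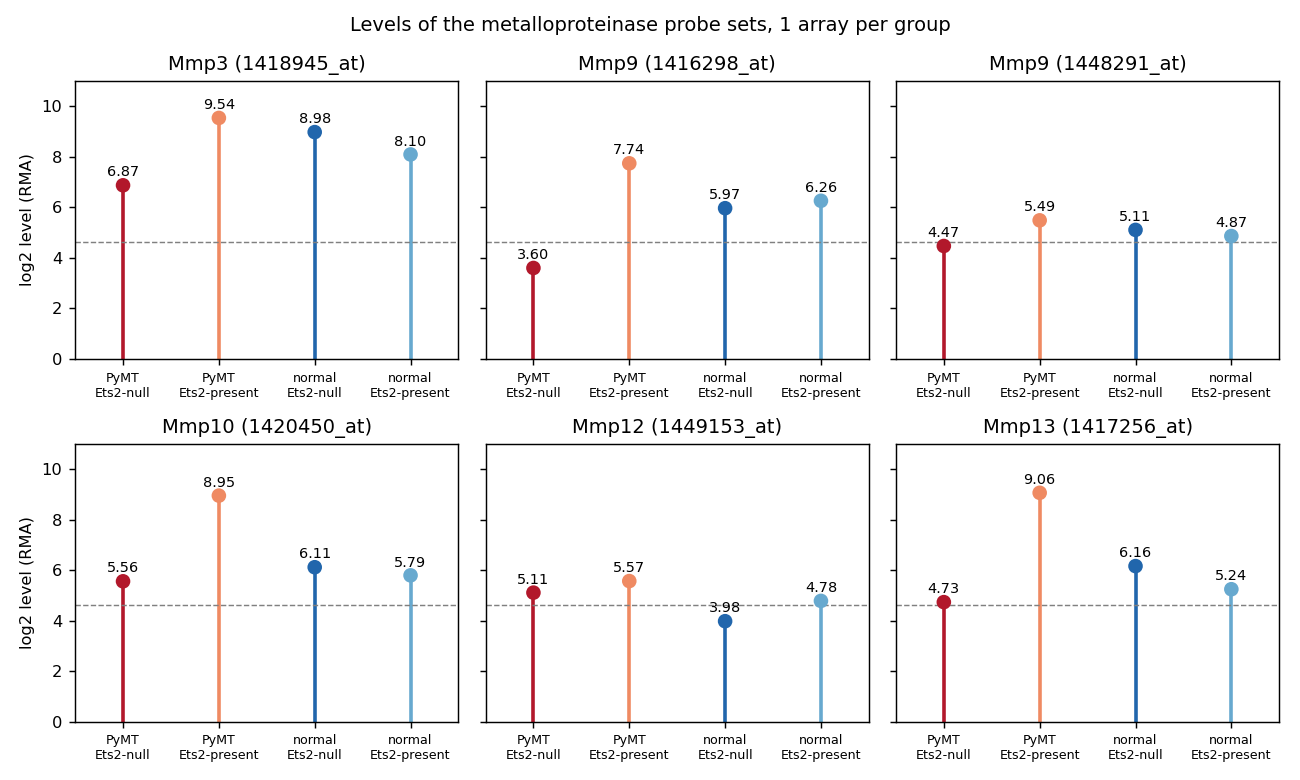
Log2 levels (vertical axis, RMA units) of the 6 probe sets of the 5 metalloproteinases on each array (horizontal axis, 1 array per group, so no error bars); the dashed line is the filter level of 4.63. Mmp3, Mmp10, Mmp13 and both Mmp9 probe sets are highest in PyMT Ets2-present and lowest in PyMT Ets2-null fibroblasts, while Mmp12 is lowest in normal Ets2-null fibroblasts.

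The promoters are shown because Mmp13, Mmp10 and Mmp3, which lie with Mmp12 in a cluster on chromosome 9, were high and low on the same arrays while Mmp12 was not. RefSeq promoter sequences, 250 bases before to 50 after the annotated start, were matched for 4 of the 5 genes (Mmp3, Mmp10, Mmp12 with 2 starts, and Mmp13; the other gene is Mmp9). All are on the plus strand of GRCm38.p6. Capitals mark the AP-1 letters TGAGTCA or their other strand TGACTCA, and the PEA3/ETS letters AGGAAG or their other strand CTTCCT; the motifs do not overlap in these windows.
Mmp13 (chr9:7272264-7272563): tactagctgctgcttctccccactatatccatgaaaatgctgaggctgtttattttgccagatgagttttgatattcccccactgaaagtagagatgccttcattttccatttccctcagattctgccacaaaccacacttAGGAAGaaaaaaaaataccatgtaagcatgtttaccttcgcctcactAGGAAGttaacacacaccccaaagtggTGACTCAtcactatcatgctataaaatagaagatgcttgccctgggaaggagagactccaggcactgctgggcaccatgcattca
Mmp10 (chr9:7502092-7502391): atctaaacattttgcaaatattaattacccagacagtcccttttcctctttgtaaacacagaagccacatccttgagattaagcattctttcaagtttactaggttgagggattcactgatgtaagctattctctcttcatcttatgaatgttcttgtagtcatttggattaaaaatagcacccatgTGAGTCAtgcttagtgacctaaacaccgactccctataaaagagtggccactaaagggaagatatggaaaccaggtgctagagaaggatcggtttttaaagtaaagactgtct
Mmp3 (chr9:7445572-7445871): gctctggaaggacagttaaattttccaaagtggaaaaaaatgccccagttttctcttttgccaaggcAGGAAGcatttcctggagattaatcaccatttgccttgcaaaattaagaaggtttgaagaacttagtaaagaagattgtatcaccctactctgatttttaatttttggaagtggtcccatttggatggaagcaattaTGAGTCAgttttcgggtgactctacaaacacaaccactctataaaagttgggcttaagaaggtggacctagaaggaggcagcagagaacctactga
Mmp12, downstream start (chr9:7347124-7347423): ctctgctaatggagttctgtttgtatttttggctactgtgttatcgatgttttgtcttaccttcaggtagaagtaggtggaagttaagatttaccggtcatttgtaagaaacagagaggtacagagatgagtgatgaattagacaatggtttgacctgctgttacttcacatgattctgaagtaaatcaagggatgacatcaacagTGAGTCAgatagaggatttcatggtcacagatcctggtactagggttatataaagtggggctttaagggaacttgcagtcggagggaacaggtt

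The AP-1 letters begin 35 bases before the start in Mmp13, 63 in Mmp10, 46 in Mmp3 and 44 in Mmp12. They are held by 5.2% of 32851 RefSeq promoters of this length. The PEA3/ETS letters, held by 35.4%, occur in Mmp13 at 109 and 62 bases and in Mmp3 at 183 bases before the start, and are not in the windows of Mmp10 and of the downstream Mmp12 start. The upstream Mmp12 start has them at 87 bases, on the other strand, and lacks the AP-1 letters. Mmp12 thus shares the AP-1 letters with the 3 genes whose pattern it did not share.

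In PyMT fibroblasts 4 of the 5 genes were at least 4-fold lower without Ets2, where 0.944% of the 8686 kept genes were, and 0 of 5 were at least 4-fold higher, where 0.691% were. The median of the 5 was -3.39, against 0.018 over all kept genes. At 2-fold the counts were again 4 lower, where 7.77% of all genes were, and 0 higher, where 7.64% were. The gene just inside the 4-fold limit was Mmp3 and the one outside it Mmp12. When each array's median was subtracted, the split of all genes past 4-fold was 67 lower and 87 higher in place of 82 and 60, and the same count of 4 of the 5 metalloproteinases was lower. With the dimmer probe set for Mmp9 the count was 3, since that difference was just over 2-fold.

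In normal fibroblasts 0 of the 5 passed 2-fold with loss of Ets2 in either direction, where 2.41% of the kept genes were lower by that much and 3.02% higher. At 4-fold the background was 0.0806% lower and 0.288% higher. Mmp13 (0.92), Mmp3 (0.88) and Mmp10 (0.32) were higher without Ets2, Mmp9 (-0.29) and Mmp12 (-0.80) lower, with a median of 0.32 against -0.023 over all genes. The first pair of these and Mmp12 exceeded the yardstick of 0.48, and Mmp10 and Mmp9 did not. With low values raised Mmp12 was -0.15, within the yardstick.

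PyMT was accompanied by higher levels in all 5 genes when the fibroblasts kept Ets2, where 50.4% of all kept genes were lower. Mmp13 was 14.1-fold higher in PyMT Ets2-present than in normal Ets2-present fibroblasts, the 4th highest difference of all kept genes, and Mmp10 8.91-fold higher, the 9th. Mmp9 (2.79-fold) and Mmp3 (2.72-fold) were higher by less, and Mmp12 was 1.72-fold higher. At the 4-fold limit this made 2 of the 5, where 0.84% of kept genes were higher, and at 2-fold 4 of the 5, where 5.42% were. None of the 5 was lower, where 1.12% of kept genes passed 4-fold and 6.22% passed 2-fold. The dimmer Mmp9 probe set gave 1.54-fold.

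Without Ets2, PyMT fibroblasts had lower levels than normal fibroblasts in 4 of the 5, where 47.5% of all kept genes were lower. Mmp9 was 5.15-fold lower, Mmp3 4.3-fold, Mmp13 2.69-fold and Mmp10 1.47-fold lower, the last within the yardstick of 0.70. Mmp12 went the other way and was 2.19-fold higher, or 1.39-fold with low values raised. The count at least 4-fold lower was 2 of 5, where 2.21% of all kept genes were, and at 2-fold it was 3, where 11.2% were. On the other side 0 of 5 passed 4-fold, where 1.29% did, and 1 passed 2-fold, where 9.69% did. Mmp9 depended on its weak signal. With the low value raised to the filter level it was 2.52-fold lower, and by the dimmer probe set 1.56-fold lower. This comparison shares the PyMT Ets2-null array with the Ets2 comparison in PyMT fibroblasts and the normal Ets2-null array with that in normal fibroblasts, so this comparison is not independent of either. The Ets2 comparisons in PyMT and in normal fibroblasts share no array.

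The Ets2 difference in PyMT fibroblasts minus that in normal fibroblasts, which uses all 4 arrays, was -5.24 for Mmp13, -3.85 for Mmp9, -3.71 for Mmp10, -3.55 for Mmp3 and 0.34 for Mmp12. The first 4 were among the 17 lowest of the 8686 genes, with Mmp13 3rd, Mmp9 10th, Mmp10 12th and Mmp3 17th, while Mmp12 lay above the median of all genes (0.042). With low values raised Mmp9 was -2.82. At the 4-fold limit 4 of 5 were lower, where 2.33% of kept genes were, and 0 higher, where 1.75% were. The 2-fold limit gave the same counts, against 11.2% of genes lower and 10.2% higher. The dimmer Mmp9 probe set gave -1.26. With low values raised, Mmp12 had the opposite sign at -0.31, so it has no direction here.

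**Figure D2:**
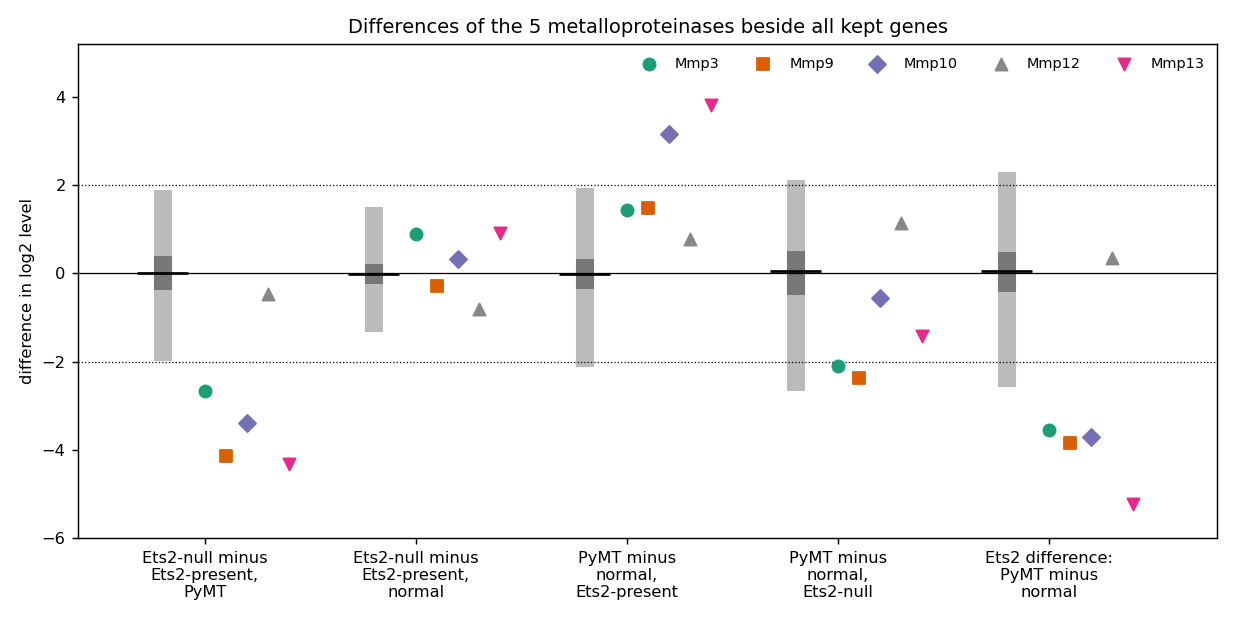
Differences in log2 level (vertical axis) of the 5 metalloproteinases, each a coloured symbol, in the 5 comparisons (horizontal axis), beside all 8686 kept genes, whose 1st to 99th percentile is the light bar, whose quartiles are the dark bar and whose median is the black line; dotted lines mark 4-fold. Mmp3, Mmp9, Mmp10 and Mmp13 lie below the light bar for the Ets2 difference in PyMT fibroblasts and above its middle for PyMT in Ets2-present fibroblasts, while Mmp12 stays inside the bar throughout.

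Mmp13, Mmp12, Mmp3 and Mmp10 lie in a cluster of metalloproteinase genes on mouse chromosome 9, and Mmp9 lies on chromosome 2. In the RefSeq annotation (GRCm38.p6) the protein-coding genes of the cluster run Mmp13, Mmp12, Mmp1b, Mmp3, Mmp1a, Mmp10, Mmp8, Mmp27, Mmp20, Mmp7. Of these, Mmp1a, Mmp1b, Mmp7, Mmp8 and Mmp20 were on the array and stayed under the filter level on all 4 arrays, and Mmp27 was not analysed here. The genes with large Ets2 differences in PyMT fibroblasts therefore alternated along the cluster with genes of weak or no signal. The genes beside the cluster were not at least 4-fold apart in any comparison. Dcun1d5, on the Mmp13 side, was -0.26 and -0.21 for the Ets2 difference in PyMT and in normal fibroblasts. On the Mmp7 side Tmem123 was -0.48 and 0.19, Birc2 0.62 and -0.16, and Birc3, an inhibitor of apoptosis, 1.07 and -0.75. The Ets2 difference of Mmp8, the neutrophil collagenase, was -1.40 in PyMT fibroblasts, at levels of 2.48 in PyMT Ets2-null and 3.87 in PyMT Ets2-present fibroblasts, both under the filter level.

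**Figure D3:**
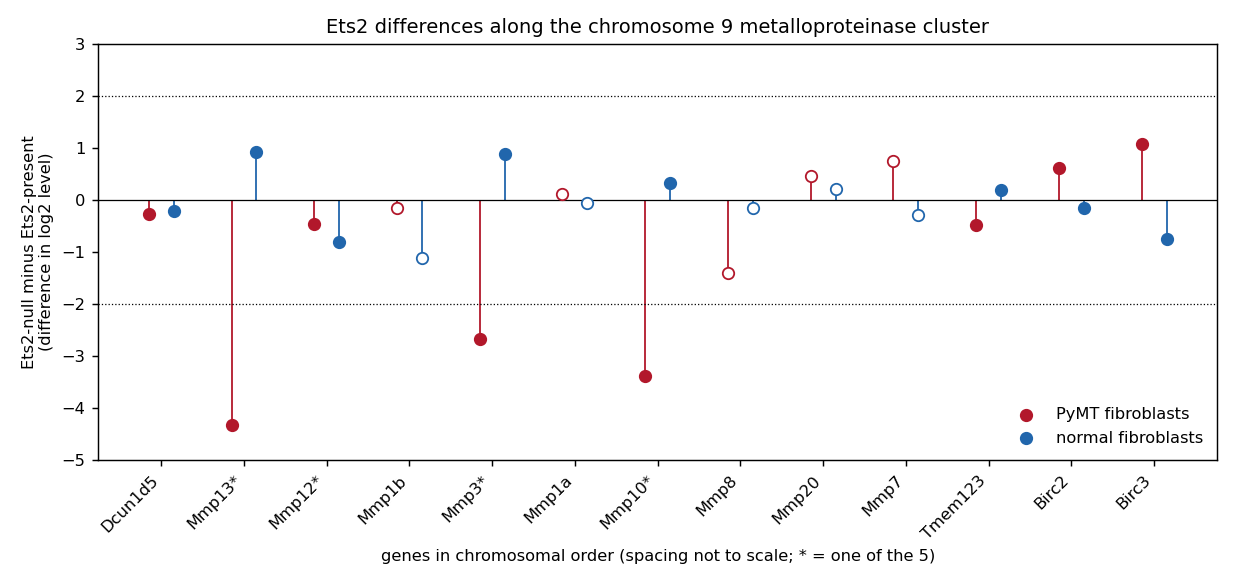
Ets2-null minus Ets2-present difference in log2 level (vertical axis) for the genes of the chromosome 9 cluster and its neighbours that were on the array, in chromosomal order (horizontal axis, not to scale), in PyMT and in normal fibroblasts; open circles are genes under the filter level on all 4 arrays and asterisks mark Mmp13, Mmp12, Mmp3 and Mmp10. Only Mmp13, Mmp3 and Mmp10 pass the dotted 4-fold line among the genes shown, each in PyMT fibroblasts.

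Over all kept genes with a promoter in the table, 6 of 342 with the AP-1 letters shown above were at least 4-fold lower without Ets2 in PyMT fibroblasts (1.75%), and 55 of 6718 without them (0.819%). Leaving out the metalloproteinases, the genes with the AP-1 letters were 3 of 338 (0.888%), close to the share without the letters. For the PEA3/ETS letters the shares were 24 of 2622 with them (0.915%) and 37 of 4438 without (0.834%). Of the 6 genes with the AP-1 letters, 3 were Mmp13, Mmp10 and Mmp3, and the others were Creb3l3 (-2.55), Wnt5b (-2.21) and Sdcbp2 (-2.20), which were named after their values were seen. The median Ets2 difference was 0.037 with the AP-1 letters and 0.021 without. A match is a description of the letters and not of a bound site.

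Likeness between profiles was measured as the root mean square distance between log2 values over the 4 arrays, each gene centred on its own mean. The profile nearest to that of Mmp13 among all kept genes was that of Mmp10 (0.40), and Mmp13 was the 2nd nearest to Mmp10. Next to Mmp13 came Plxnc1 (0.55), a plexin receptor, and Lcp1 (0.63), an actin-bundling protein of leukocytes. For Mmp10 the nearest were Ahrr (0.25), the repressor of the aryl hydrocarbon receptor, and Nppb (0.40), a natriuretic peptide precursor, after Mmp13 among them. Ahrr was under the filter level on 3 of its arrays, with 2.84 in PyMT Ets2-null and 5.77 in PyMT Ets2-present fibroblasts. Mmp3 was nearest to Dennd1a (0.09), Cxcr6 (0.21), a chemokine receptor, and Pdlim4 (0.24). Dennd1a reached the filter level only in PyMT Ets2-present fibroblasts (4.82). Mmp9 was nearest to Gzmd (0.29), a granzyme, Mcpt8 (0.35), a protease of basophils, and Akr1c18 (0.42), a steroid-metabolizing enzyme. Mmp12 was nearest to Zbtb17 (0.07), Gpr3 (0.10) and the neurotrophin Bdnf (0.10). Mmp3 and Mmp9 lay 0.67 apart. Mmp3 lay 0.88 from Mmp10 and 0.96 from Mmp13, and Mmp9 lay 0.94 from Mmp10 and 0.92 from Mmp13. Mmp12 lay at least 1.12 from each of the other 4. Only Mmp13 and Mmp10 were thus among the 3 nearest genes of each other. Ranks depended on the gene they were counted from. From Mmp3, Mmp9 was the 436th nearest gene, Mmp10 the 1727th and Mmp13 the 2804th. From Mmp9, Mmp3 was the 18th, Mmp13 the 117th and Mmp10 the 122nd. Counted from Mmp13, Mmp9 was the 34th and Mmp3 the 38th, and counted from Mmp10, Mmp3 was the 137th and Mmp9 the 199th. With only 4 arrays many genes are close to any profile, so that these distances order genes and show no shared control.

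The other metalloproteinases that were kept did not share the pattern. Of 18 listed, 13 were on the array and 8 kept. Mmp8, at -1.40, was on the list but under the filter level. Without Ets2 in PyMT fibroblasts 0 of the 8 were at least 2-fold lower, a count near the background of 7.77% of all kept genes. On the higher side 2 of the 8 passed 2-fold, where 7.64% of all kept genes did. Mmp16, a membrane-anchored enzyme, was 1.57 higher, or 1.20 with low values raised. Mmp11, stromelysin-3 of tumor stroma, was 1.13 higher, and Mmp24 was 0.82 higher. Mmp14, the membrane enzyme that activates the Mmp2 proenzyme, was -0.11 and Mmp2 itself -0.44. Their median was 0.16 in PyMT and 0.32 in normal fibroblasts.

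Among the 4 kept inhibitors, Timp1 had the order of arrays seen for Mmp3, Mmp10 and Mmp13. It had a log2 level of 11.33 in PyMT Ets2-null and 12.64 in PyMT Ets2-present fibroblasts, and 11.90 in normal Ets2-null and 11.59 in normal Ets2-present fibroblasts. Its Ets2 difference was -1.31 in PyMT and 0.31 in normal fibroblasts, smaller in PyMT fibroblasts than those of Mmp3, Mmp10 and Mmp13. The membrane inhibitor Reck was 0.66 and Timp2 0.32 in PyMT fibroblasts, and Timp3 was -0.17.

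Plasmin, made from plasminogen by urokinase, activates stromelysin and collagenase proenzymes. Of 12 genes listed for proenzyme activation 7 were kept, among them Furin (0.28), a convertase outside this route. Urokinase itself (Plau) and plasminogen (Plg) were listed but not kept. Of the 7, 2 were at least 2-fold lower without Ets2 in PyMT fibroblasts, where 7.77% of all kept genes were. These were Serpinb2, the inhibitor of urokinase (-5.01, or -4.24 with low values raised), and Plaur, the urokinase receptor (-1.20). Serpinb2 was kept through the PyMT Ets2-present array alone, so it had to be lower without Ets2 in PyMT fibroblasts. The median of the 7 was 0.38, and S100a10, which binds plasminogen at the surface, was 0.78 higher.

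Of 11 kept cytokines and growth factors known to induce these proteases, 3 passed 2-fold on the lower side and 2 on the higher side without Ets2 in PyMT fibroblasts, where 7.77% and 7.64% of all kept genes did, with a median of -0.20. Hbegf, a ligand of the EGF receptor, was -1.91 and the cytokine Il11 -1.79, while Hgf was 1.68 higher. The PyMT difference of Il11 was -0.26 in Ets2-null fibroblasts and 1.69 in Ets2-present ones.

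Of the 6 kept AP-1 subunits, Fosl1 was -1.83 without Ets2 in PyMT and -0.37 in normal fibroblasts, at 5.86 in PyMT Ets2-null and 7.69 in PyMT Ets2-present fibroblasts. Junb was 0.74, or 0.40 with low values raised, and Fos -0.62 in PyMT fibroblasts, and the median of the 6 was -0.22. Of the 12 kept ETS factors 0 passed 2-fold in PyMT fibroblasts, a count near the background of 7.77% of all kept genes lower and 7.64% higher. Ehf was just under 2-fold higher, or 0.13 with low values raised, Fli1 0.59 and Gabpa -0.44. In the NF-kB pathway Relb was -1.37, or -0.78 with low values raised, and Nfkb2 -0.63. Tnfaip3 was 0.74, but both of its PyMT values were under the filter level, and with low values raised it was 0. The median of the 8 kept genes was -0.01. The median of the 12 was -0.07, or 0.11 over the 11 kept with array medians subtracted, and that of the NF-kB list was 0.09 with the same scaling, so neither has a direction.

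Matrix proteins that these enzymes degrade were higher in 11 of 13 kept genes and lower in 2 without Ets2 in PyMT fibroblasts, where 48.7% of all kept genes were lower, and none passed 2-fold. Their median was 0.38, within the yardstick of 0.69, and Lamb1 (0.79), Hspg2 (0.78) and Vcan (0.69) were highest. Decorin (Dcn) was -0.68. In normal fibroblasts 10 of the 13 were lower, where 52.8% of all kept genes were.

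**Figure D4:**
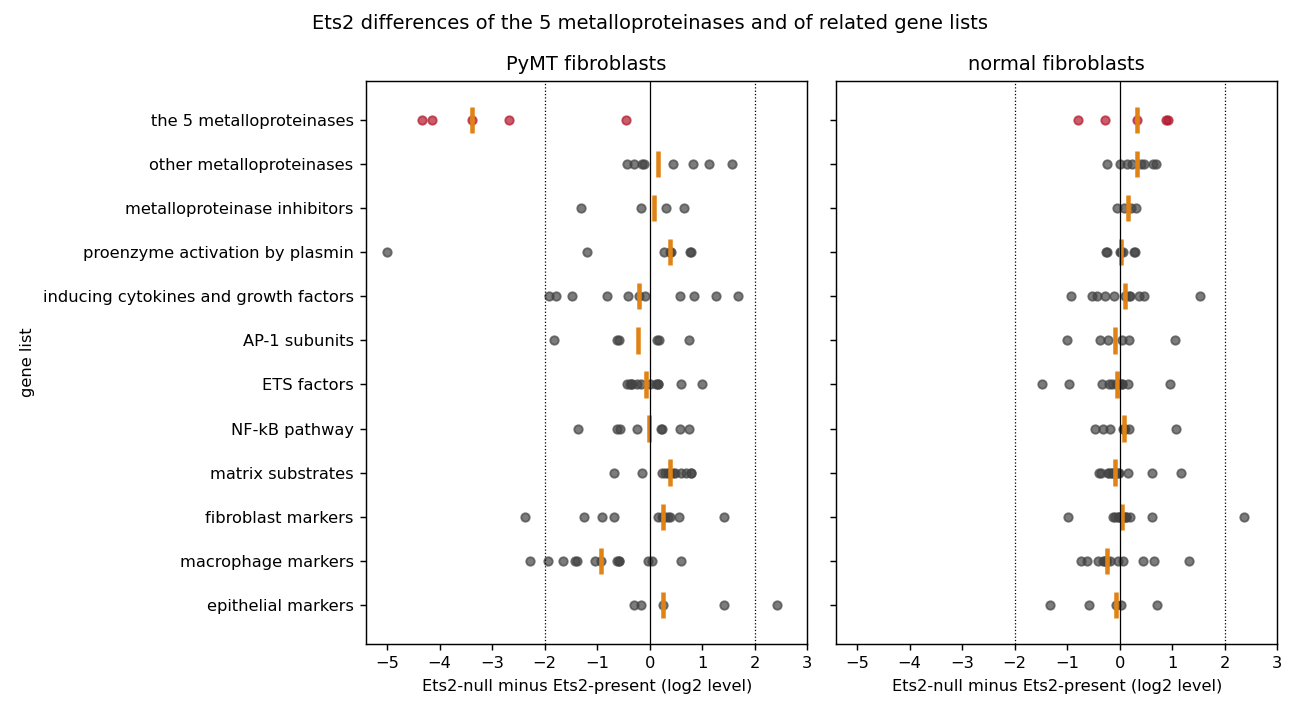
Ets2-null minus Ets2-present difference in log2 level (horizontal axis) of each kept gene of the lists named on the vertical axis, in PyMT fibroblasts (left) and normal fibroblasts (right); orange bars are list medians and dotted lines mark 4-fold. The 5 metalloproteinases have a median of -3.39 in PyMT fibroblasts and 0.32 in normal fibroblasts, while the macrophage markers have -0.93 and -0.25.

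The arrays read bulk RNA, in which fewer cells of a type and less RNA per cell cannot be told apart. Of 12 fibroblast markers 0 were under the filter level on any of the 4 arrays, with Vim at 13.41 in PyMT Ets2-null, 13.15 in PyMT Ets2-present, 13.21 in normal Ets2-null and 13.21 in normal Ets2-present fibroblasts. Without Ets2 in PyMT fibroblasts 8 of the 12 were higher and 4 lower, with a median of 0.25, where 48.7% of all kept genes were lower. The 3 with the largest differences were Fap, an activated-fibroblast protease (-2.37), the growth factor receptor Pdgfra (1.41) and the surface protein Thy1 (-1.25). Macrophage markers went with Mmp3, Mmp9, Mmp10 and Mmp13: of 18 on the array 13 were kept, and 11 of the 13 were lower without Ets2 in PyMT fibroblasts, with a median of -0.93, where 48.7% of all kept genes were lower. With PyMT in Ets2-present fibroblasts 1 of the 13 was lower and 12 were higher, with a median of 1.16, where 50.4% of all kept genes were lower. Adgre1 and Mrc1 were kept through the PyMT Ets2-present array alone, so they had to be highest there. With low values raised the medians were -0.51 and 0.63. Csf1r, the receptor of macrophage growth factor, was -1.93, the scavenger receptor Msr1 -2.28, or -1.53 with low values raised, and the macrophage surface receptor Adgre1 -1.65. The log2 of the summed level of the 18 was 9.96 in PyMT Ets2-null and 10.53 in PyMT Ets2-present fibroblasts, and 9.15 in normal Ets2-null and 9.26 in normal Ets2-present fibroblasts. Under the filter level were 12 of 18 in PyMT Ets2-null, 7 in PyMT Ets2-present, 10 in normal Ets2-null and 11 in normal Ets2-present fibroblasts. Lyz2, an abundant macrophage lysozyme, was -0.04 and Ptprc, the pan-leukocyte antigen CD45, 0.59 without Ets2 in PyMT fibroblasts. In PyMT relative to normal fibroblasts without Ets2, where Mmp3, Mmp9 and Mmp13 were lower, the macrophage median was 0.17, or 0 with low values raised. The part of macrophage RNA in the levels of Mmp9 and Mmp12, which macrophages also make, was not tested. Neutrophil markers were under the filter level in 10 of 10 in PyMT Ets2-null and 9 of 10 in PyMT Ets2-present fibroblasts, and in 10 of 10 on both normal arrays. The osteoclast markers, a cell type rich in Mmp9, had a median of -0.06 for the Ets2 difference over 3 kept genes. Epithelial markers were under the filter level in 8 of 12 in PyMT Ets2-null and 10 of 12 in PyMT Ets2-present fibroblasts, and in 10 of 12 in normal Ets2-null and 9 of 12 in normal Ets2-present fibroblasts. Single keratins were not even across the arrays. Krt18 was 6.72 in normal Ets2-null and 8.05 in normal Ets2-present fibroblasts, and under the filter level on both PyMT arrays. Krt19 went the other way, at 7.21 in PyMT Ets2-null, 7.36 in PyMT Ets2-present, 4.38 in normal Ets2-null and 4.98 in normal Ets2-present fibroblasts. A part of epithelial RNA in the PyMT differences was not tested. Endothelial markers were under it in 7 of 9 in PyMT Ets2-null fibroblasts and 8 of 9 on each other array.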

How the data were processed

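RNA of mammary fibroblasts, cultured after gravity separation from female mice, was hybridised to Affymetrix mouse expression arrays, 1 per group. Per the labels, the authors deposited log2 probe set levels computed by RMA, version not given in the sources used here, which corrects background, normalizes arrays together and summarizes probes; low levels are compressed, so folds near background are uncertain. Groups were taken from the sample titles. Here, control probe sets and those with several or no symbols were left out, the probe set with the highest mean stood for its gene, and genes were kept if their highest level reached 4.63. Differences were taken per comparison in Python 3.11.15 with pandas 2.3.3, and tested on simulated data with known folds. No test was run: 1 array per group leaves no spread, and an additive model would take the interaction itself as its error. A gene was counted past 4-fold, the study's limit, and past 2-fold. Alternatives were other filters, low values raised to the filter level, the mean over probe sets, the other Mmp9 probe set, and cyclic loess, quantile (limma 3.58.1, R 4.3.3) or median scaling. The number of arrays limits the precision. The genes named are all probe sets of the 5 metalloproteinases, for each its 3 nearest profiles, and the 3 kept genes per list with the largest absolute Ets2 difference in PyMT fibroblasts; marker genes, Mmp2, Mmp14, Timp3 and Dcn, and genes under the filter level in the cluster were added after their values were seen. The metalloproteinases and lists were chosen with earlier results of these data known. Mmp3, Mmp9 and Mmp13 were also among the genes the study followed up after these arrays. The paper lists qRT-PCR primers for them and reports that qRT-PCR on independent RNA of tumor fibroblasts bore out most array changes. It also reports lower MMP9 activity in matrigel plugs with tumor fibroblasts lacking Ets2. Probe sets were named by platform annotation.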

Additional observations from a re-analysis of the deposited data

Results flagged for a closer look

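The Ets2 difference had opposite signs in PyMT and in normal fibroblasts for 4 of the 6 probe sets, and the PyMT difference had opposite signs in Ets2-null and in Ets2-present fibroblasts for 5 of the 6. Each rests on 1 array per group, and the difference between the groups was not tested. How many of all kept genes had opposite signs was not counted, so the counts cannot be read as particular to these genes. For Ets2, 48.7% of kept genes were lower in PyMT and 52.8% in normal fibroblasts. For PyMT, 47.5% were lower in Ets2-null and 50.4% in Ets2-present ones. In Mmp10 and the dimmer Mmp9 probe set, the normal Ets2 difference and the Ets2-null PyMT difference lie within the yardsticks of 0.48 and 0.70. For Mmp13 the Ets2 difference was -4.33 in PyMT and 0.92 in normal fibroblasts, and the PyMT difference was -1.43 in Ets2-null and 3.81 in Ets2-present fibroblasts, both -5.24 apart. For Mmp10 the values were -3.39 and 0.32 for Ets2, and -0.56 and 3.15 for PyMT, both -3.71 apart. For Mmp3 they were -2.67 and 0.88 for Ets2, and -2.10 and 1.44 for PyMT, both -3.55 apart. For the brighter Mmp9 probe set only the PyMT differences were opposite, -2.36 in Ets2-null and 1.48 in Ets2-present fibroblasts, -3.85 apart. For the dimmer Mmp9 probe set the Ets2 differences were -1.02 in PyMT and 0.24 in normal fibroblasts and the PyMT differences -0.64 and 0.62, both -1.26 apart. The PyMT pair of a probe set uses the same 4 arrays as its Ets2 pair, so the 2 are the same subtraction and count once.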

How the results depend on the processing

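Each single-gene difference was recomputed under 8 alternatives, but a filter cannot change it, probe set choices can change only Mmp9, and raised low values only comparisons with an array under the filter level. Of the 91 values that could change, 89 kept their sign and 79 stayed within the SD of probe set disagreement. The 12 that moved were all Mmp9 values but 1, the Ets2 difference of Mmp12 in normal fibroblasts (-0.15). The 2 with the other sign were Mmp9 for Ets2 in normal fibroblasts (0.24, other probe set) and Mmp12 in the subtraction of Ets2 differences (-0.31, low values raised). The median of the 5 for the Ets2 difference in PyMT fibroblasts was -2.67 with the mean over probe sets and with the other Mmp9 probe set. The median of the PyMT difference was -0.64 in Ets2-null fibroblasts with the other Mmp9 probe set, and 2.32 in Ets2-present ones with the filter at the 60th percentile, which leaves 4 of the 5. At a 2-fold limit the counts higher with PyMT were 1 without Ets2 and 4 with it. The count at least 4-fold lower with PyMT in Ets2-null fibroblasts was 1 with low values raised, with the mean over probe sets and with the other Mmp9 probe set. Over all genes, raising low values turned the 4-fold counts of 82 lower and 60 higher for Ets2 in PyMT fibroblasts into 42 and 29, and the 60th percentile filter into 41 and 28. For Ets2 in normal fibroblasts 7 and 25 became 1 and 16, and 2 and 16. The genes 4-fold higher with PyMT were 112 in Ets2-null fibroblasts, and 68 and 69 under these settings, and 73 in Ets2-present ones, and 42 under both. For the subtraction of Ets2 differences 202 and 152 became 110 and 64, and 91 and 46. Subtracting array medians moved the median of all genes by 0.108 for Ets2 in PyMT fibroblasts. No paired analysis was possible because each group has a single array and no replicate numbers. Raised low values for the macrophage markers were chosen after seeing the data. Signal near background limits Mmp9, Mmp12 and the lower arrays of Mmp13.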
